A study of Mus musculus with 80 samples.

Results

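Rmrp, Rpph1 and Terc encode the RNA components of RNase MRP, RNase P and telomerase, and their levels were followed in RNA sequenced from the chromatin fraction (ChrRNA-seq) of mouse embryonic stem cells. The genes were taken by name, 3 of the 22556 genes in each of 6 expression tables, and all 3 were present and passed the filter of a mean of 1 CPM (counts-per-million of gene reads) in every table. The tables hold 80 libraries in 36 groups from 8 cell lines, of which YTHDC1 was profiled in 2 experiments kept apart here, all derived from cells with a Cast chromosome set and a 129S chromosome set and carrying an Xist gene that doxycycline (Dox) switches on. Groups below are named by line and treatment, and a set means the 4 treatments of a clone in a single experiment, of which there are 20.

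In the degron lines a tag on METTL3, YTHDC1, ZCCHC8 or ZFC3H1 lets the compound dTAG direct that protein to degradation. METTL3 writes the m6A mark on RNA, YTHDC1 binds it in the nucleus, ZCCHC8 is a subunit of the NEXT complex and ZFC3H1 a subunit of the PAXT connection, which are adaptors that bring nuclear RNA to the exosome. METTL3 was tagged in 4 clones, at its N-terminal end in G4 and H1 and at its C-terminal end in C3 and H5. ZCCHC8 (clones Z4F and Z12H), ZFC3H1 (8H and 11A) and YTHDC1 (Y9F and Y12H, profiled in 2 separate experiments) had 2 clones each. The inducible Xist lay on the Cast allele, under a TetOn promoter in place of the endogenous one, in the METTL3, ZFC3H1 and transgene lines, and on the 129S allele, with Bgl stem loops in the endogenous Xist, in the YTHDC1 and ZCCHC8 lines. The transgene lines were built in METTL3 clone H5 and expressed GFP-METTL3, either wild type (WT) or the D395A mutant, from the Rosa26 promoter. They had both X chromosomes (WT_XX, D395A_XX) or showed a single X, the one with the inducible Xist (WT_XiO, D395A_XiO), and each was a single clone profiled in 2 experiments, so its replicates are not independent clones. Within every set, cells were untreated, given dTAG for 26 h, given Dox for 24 h, or given dTAG for 2 h and then dTAG with Dox for 24 h.

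RNase MRP cleaves precursors of ribosomal RNA, and RNase P removes the leader from precursor transfer RNAs. Both enzymes are built on a catalytic RNA and share most of their protein subunits, and both RNAs are transcribed by RNA polymerase III from promoters that lie upstream of the gene. Terc is transcribed by RNA polymerase II, carries the template from which telomeric repeats are copied, and ends in an H/ACA domain bound by dyskerin. The nuclear exosome trims or degrades extended forms of telomerase RNA, and the adaptors that bring RNA to the exosome are known chiefly for acting on short or unstable nuclear transcripts.

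The RNAs are shown because their short length is what the later comparison with other short genes rests on, of which the tables hold 3506 that span under 3 kb. Each is given 5′ to 3′ from the RefSeq annotation on GRCm38, and all 3 lie on the minus strand as a single exon. Rmrp spans chr4:43492785-43493059, 275 bases, and is printed whole. Rpph1 spans chr14:50807447-50807771, 325 bases, of which bases 1 to 300 (chr14:50807472-50807771) are printed. Terc spans chr3:96414437-96414833, 397 bases, of which bases 1 to 300 (chr3:96414534-96414833) are printed. Capitals mark the telomeric template CTAACCC, which begins at base 3 of Terc, and the letters GGACT, a form of the sequence in which m6A is placed, found at base 234 of Terc. Both were searched on the RNA strand of the whole of each gene and occurred nowhere else in them, and a match is only a match of letters. Other forms of the m6A sequence were not searched for. Some occur in the printed letters of the other members, such as GGACA in Rmrp and AGACT in Rpph1.
Rmrp: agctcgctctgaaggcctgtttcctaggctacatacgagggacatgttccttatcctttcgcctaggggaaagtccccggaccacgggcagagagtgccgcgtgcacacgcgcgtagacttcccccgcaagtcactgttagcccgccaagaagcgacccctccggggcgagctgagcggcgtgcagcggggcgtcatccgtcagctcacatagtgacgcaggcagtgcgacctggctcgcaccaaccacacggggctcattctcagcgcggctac
Rpph1: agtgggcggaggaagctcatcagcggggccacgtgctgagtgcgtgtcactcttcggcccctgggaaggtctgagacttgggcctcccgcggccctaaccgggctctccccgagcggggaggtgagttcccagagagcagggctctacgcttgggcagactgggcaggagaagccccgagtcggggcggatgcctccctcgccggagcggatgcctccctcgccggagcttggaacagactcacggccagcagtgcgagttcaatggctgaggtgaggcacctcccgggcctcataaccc
Terc: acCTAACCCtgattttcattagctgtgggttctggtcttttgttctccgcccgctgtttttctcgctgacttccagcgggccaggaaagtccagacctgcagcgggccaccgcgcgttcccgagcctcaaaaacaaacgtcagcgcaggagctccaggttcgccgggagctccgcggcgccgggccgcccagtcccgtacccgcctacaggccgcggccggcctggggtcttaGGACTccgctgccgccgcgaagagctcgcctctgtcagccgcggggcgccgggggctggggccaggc
GC content was 63.6% for Rmrp, 66.8% for Rpph1 and 66.8% for Terc, and no other stretch of the genome matched any of them over 80 bases or more at 97% identity or above.

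Rmrp and Rpph1 each sit back to back with a protein-coding gene whose promoter window (250 bases before to 50 after its start, plus strand) covers sequence upstream of the RNA gene, and those windows are shown for that reason. Capitals mark matches on either strand to the octamer ATTTGCAT, which Oct factors bind, to the TATA box letters TATAAA and their longer form TATATAA, which share letters where they overlap, and to the CCAAT box. The window of Ccdc107, chr4:43493115-43493414, covers 56 to 355 bases upstream of the first base of Rmrp. It holds the octamer 215 to 222 bases upstream, TATAAA 163 to 168 bases upstream and the reverse of CCAAT 70 to 74 bases upstream. The window of Parp2, chr14:50807666-50807965, reaches into Rpph1, whose first base is its base 106, and holds the octamer 89 to 96 bases upstream of Rpph1.
Ccdc107: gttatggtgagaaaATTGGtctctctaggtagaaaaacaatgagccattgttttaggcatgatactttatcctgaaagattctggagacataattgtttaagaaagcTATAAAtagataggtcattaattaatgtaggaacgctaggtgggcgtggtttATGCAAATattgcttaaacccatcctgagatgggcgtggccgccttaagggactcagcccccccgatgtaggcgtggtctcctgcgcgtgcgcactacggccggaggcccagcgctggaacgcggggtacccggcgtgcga
Parp2: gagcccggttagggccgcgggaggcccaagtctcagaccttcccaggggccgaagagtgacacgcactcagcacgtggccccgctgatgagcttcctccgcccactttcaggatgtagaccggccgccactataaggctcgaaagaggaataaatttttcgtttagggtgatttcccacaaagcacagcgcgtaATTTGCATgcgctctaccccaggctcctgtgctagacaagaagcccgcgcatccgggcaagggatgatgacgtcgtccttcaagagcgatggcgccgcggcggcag
Of 32851 promoter windows of this length in the table, 1.74% hold the octamer, 13.6% TATAAA, 37.4% CCAAT and 3.24% TATATAA. These matches are a description of the letters and show no bound factor.

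Rmrp had the highest CPM per kilobase of annotated span in 79 of the 80 libraries. On that scale Rmrp stood above Rpph1 and Rpph1 above Terc in all 80. Annotated spans include introns, so the scale favours short genes without introns. By CPM alone the rank of Rmrp among all genes ran from 1 to 1190. Of 35 other short structured RNAs looked for, 6 were in the tables. Rmrp ranged from 218 to 25414 CPM with a median of 2831, and took up to 2.54% of all gene reads. Rpph1 ranged from 21.5 to 3544 CPM with a median of 500.2, and Terc from 1.16 to 246 CPM with a median of 11.3. On the CPM per kilobase scale the level of Rmrp was a median of 8.42 times that of Rpph1 (range 1.47 to 111) and 424 times that of Terc (range 106 to 1831). The level of Rpph1 per kilobase was a median of 41.6 times that of Terc (range 2.4 to 613).

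The reads behind these levels were 4652 to 584488 for Rmrp, 450 to 81507 for Rpph1 and 28 to 5651 for Terc per library, in libraries of 8583487 to 34392078 gene reads. A single read was worth 0.0291 to 0.117 CPM, so counting error was small for Rmrp and Rpph1 and largest for Terc, which had its fewest reads in the Dox library of METTL3 clone C3. Of 10 stem cell markers, 9 had a mean above 1 CPM in every table, and a list of 10 fibroblast markers, looked at because the cultures held feeder fibroblasts, summed to 384 to 2196 CPM with 1 to 4 markers above 1 CPM. In bulk RNA, fewer cells that make a transcript and less of it per cell cannot be told apart. The 6 tables were scaled separately by the authors, so levels set side by side across tables are a description, and all tests were made within a table.

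**Figure D1:**
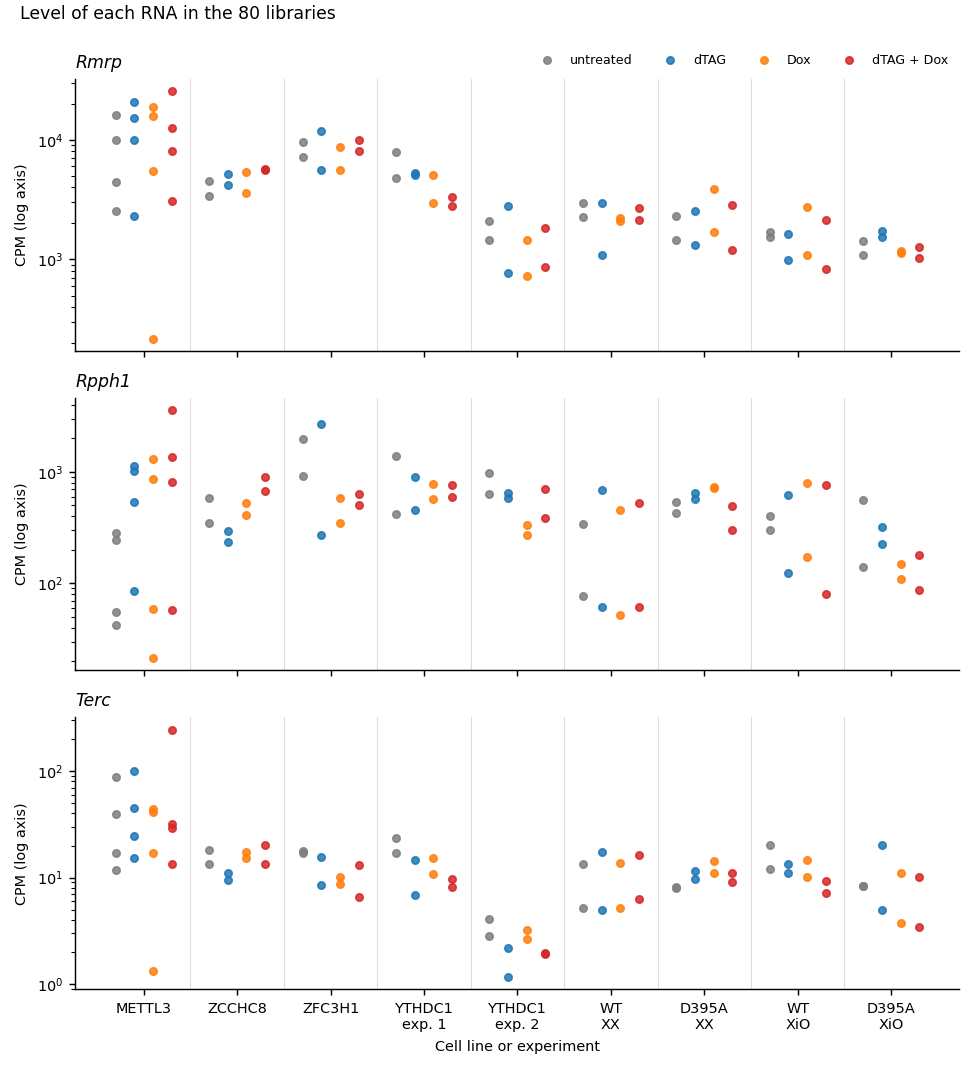
Level of Rmrp, Rpph1 and Terc in each of the 80 libraries (CPM, log axis), with a column of points per treatment in each of the 9 lines or experiments and each point a library. The METTL3 libraries spread the most, from 218 to 25414 CPM for Rmrp, and Terc was lowest in YTHDC1 experiment 2, at 1.16 CPM.

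Ordered by group mean, Rmrp was highest in METTL3 dTAG + Dox, at 12273 ± 9581 CPM (SD, n = 4), and lowest in YTHDC1 experiment 2 Dox, at 1089 ± 505 CPM (SD, n = 2). Rpph1 was highest in ZFC3H1 dTAG, at 1489 ± 1721 CPM (SD, n = 2), and lowest in D395A_XiO Dox, at 130.2 ± 28.3 CPM (SD, n = 2). Terc was highest in METTL3 dTAG + Dox, at 80.2 ± 111 CPM (SD, n = 4), and lowest in YTHDC1 experiment 2 dTAG, at 1.68 ± 0.73 CPM (SD, n = 2). Neighbours in these orders were rarely apart by more than their spread.

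Of the 35 neighbouring pairs of groups, the means differed by more than the larger of their SDs in 2 for Rmrp, 0 for Rpph1 and 1 for Terc. For Rmrp these were ZCCHC8 dTAG + Dox (5645 ± 24.3) above YTHDC1 experiment 1 dTAG (5164 ± 95.4), and untreated ZCCHC8 (3952 ± 752) above YTHDC1 experiment 1 dTAG + Dox (3048 ± 369). For Terc it was YTHDC1 experiment 2 Dox (2.93 ± 0.42) above dTAG + Dox of the same line (1.93 ± 0.05), all in CPM with n = 2.

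Levels of the members varied more within sets, that is between treatments of the same clone in the same experiment, than those of most genes. The SD within sets of log2(CPM + 1) was 0.68 for Rmrp, 0.99 for Rpph1 and 0.68 for Terc, against a median of 0.20 over the 12671 genes that passed the filter in all tables, and these were ranks 30, 7 and 28 from the top. Within the METTL3 table the ranks were 8, 4 and 10 of 13367 genes. Rpph1 also ranked 7 of 13544 in ZFC3H1, and in the remaining tables from 77 in YTHDC1 experiment 2 to 779 in the XX transgene lines. Outside METTL3, Rmrp ranked from 417 in YTHDC1 experiment 2 to 1487 in the XiO lines. Terc ranked there from 179 in ZFC3H1 to 4117 of 13364 in the XX transgene lines. Outside METTL3 the highest library of a table exceeded the lowest by 2.11- to 3.80-fold for Rmrp, 3.61- to 14-fold for Rpph1 and 2.73- to 5.86-fold for Terc.

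With loss of ZCCHC8, Rpph1 was called lower without Dox and higher with Dox, Terc was called lower without Dox and Rmrp had no call. The difference between these responses of Rpph1 was itself not called. In the tests that follow, a call means a limma adjusted p below 0.05 over all genes of the table, and changes are differences of log2(CPM + 1) with their SE, estimated over sets. Rpph1, the RNA of RNase P, stood at 344 CPM untreated and 234 with dTAG in clone Z12H, then at 529 with Dox and 905 with both. In clone Z4F the values in that order were 584, 292, 413 and 678 CPM. Without Dox the dTAG library was the lower of its pair in both clones, and with Dox it was the higher in both, and the 2 groups did not overlap in either comparison. Here and below, with 2 libraries in a group, lack of overlap is a description and not a test. The share of all genes that show it is not given.

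The change in Rpph1 was -0.78 ± 0.26 without Dox (limma adjusted p = 0.0269) and 0.74 ± 0.26 with Dox (limma adjusted p = 0.0299). These calls stand against a background of 36.1% of all tested genes called without Dox and 40.4% with Dox in ZCCHC8. The difference between the responses with and without Dox was 1.52 ± 0.36 and was not called (limma adjusted p = 0.126), in a comparison that called 0.238% of genes. The call with Dox was lost when either clone was left out (0.77 without Z4F and 0.71 without Z12H), and the call without Dox when Z4F was left out (-0.56, limma adjusted p = 0.226).

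Terc, the telomerase RNA, stood at 13.5 CPM untreated, 9.50 after dTAG, 15.1 after Dox and 20.0 after both in Z12H. In Z4F it stood at 18, 11.1, 17.4 and 13.3 CPM. Without Dox both dTAG libraries were below both untreated libraries, whereas with Dox the clones moved in opposite directions. The change was -0.56 ± 0.18 without Dox (limma adjusted p = 0.0234) and 0.01 ± 0.18 with Dox (limma adjusted p = 0.978), and the latter changed sign under other scalings. The call was lost without Z4F (-0.47, limma adjusted p = 0.120). The difference between the responses was 0.57 (limma adjusted p = 0.507).

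Rmrp, the RNA of RNase MRP, stood at 3421 CPM untreated, 5214 after dTAG, 3583 after Dox and 5628 after both in Z12H. In Z4F it stood at 4484, 4211, 5364 and 5662 CPM. With Dox the dTAG library was higher in both clones, by a wide margin only in Z12H, and without Dox the clones moved apart. The change was 0.26 without Dox (limma adjusted p = 0.396) and 0.36 ± 0.23 with Dox (limma adjusted p = 0.216), and neither was called.

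The share of gene reads in genes under 3 kb, computed without the 3 members, moved with dTAG in this line. It was 0.783% untreated, 0.960% after dTAG, 0.827% after Dox and 1.04% after both in Z12H. In Z4F it was 0.766%, 0.848%, 0.809% and 1.05%, so it was higher with dTAG in all 4 pairs. With that share as a covariate none of the 3 calls was kept, although the change in Rpph1 with Dox was larger, at 1.97, while that without Dox was -0.073 and that in Terc without Dox -0.36, and with levels scaled to the other short genes the change in Rpph1 with Dox was 0.39 and not called. Whether the share plays a part in the members' changes was not tested beyond these fits.

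The summed level of the 10 fibroblast markers was lower with dTAG in this line. It was 627 to 651 CPM untreated and 561 to 613 CPM after dTAG, and 691 to 819 CPM after Dox and 577 to 672 CPM after both, without overlap in either comparison. Nearly all of it was Fn1, the gene of fibronectin, at 556 to 814 CPM, while the collagen genes Col1a1 and Col3a1 stayed below 1 CPM and Lum was at 0 in all libraries without Dox. Of the 10 markers 3 had a lower mean with dTAG without Dox and 4 with Dox. The sum was also lower without overlap in YTHDC1 experiment 1 with Dox (628.6 to 688.9 against 562.5 to 585.3 CPM with dTAG). The same held in D395A_XX without Dox (473.7 to 577.6 against 384.2 to 428.1 CPM). The summed stem cell markers of ZCCHC8 were higher with dTAG without Dox (1925 to 1965 against 2083 to 2157 CPM) and overlapped with Dox. The part of either list in the members' changes was not tested.

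ZCCHC8 and YTHDC1 experiment 1 shared a table, so their responses could be compared directly. The response of ZCCHC8 minus that of YTHDC1 with Dox was 0.71 ± 0.32 for Rmrp, 0.73 ± 0.36 for Rpph1 and 0.48 ± 0.26 for Terc, with limma adjusted p of 0.106, 0.146 and 0.170. Without Dox it was 0.51 for Rmrp, -0.54 for Rpph1 and 0.35 for Terc, with limma adjusted p of 0.272, 0.311 and 0.350. None of these 6 differences was called, where 29.6% of all genes were called with Dox and 25.1% without.

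Loss of ZFC3H1 was followed by no call for any of the members, and the 2 clones behaved differently. Rpph1 stood at 920.5 CPM untreated, 271 after dTAG, 347 after Dox and 628 after both in clone 11A. In clone 8H the values were 1948, 2706, 579 and 503 CPM. The dTAG library was the lower of its pair without Dox and the higher with Dox in 11A, the reverse of 8H, and the untreated and dTAG groups overlapped.

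The change in Rpph1 was -0.64 ± 0.59 without Dox (limma adjusted p = 0.645) and 0.33 ± 0.59 with Dox (limma adjusted p = 0.836). In this line 2.15% of genes were called without Dox and 3.15% with Dox. The difference between responses was 0.97 ± 0.83 for Rpph1 (limma adjusted p = 0.997). That comparison called 0% of genes by limma, where 519 genes had an unadjusted p under 0.05, and edgeR called 0 with 515 under 0.05.

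Rmrp in ZFC3H1 stood at 7119 CPM untreated, 5623 after dTAG, 8683 after Dox and 9983 after both in 11A, and at 9609, 11751, 5556 and 8019.8 CPM in 8H. Terc stood at 17.0, 8.46, 10.1 and 13.1 CPM in 11A, and at 17.8, 15.6, 8.65 and 6.53 CPM in 8H. With Dox, Rmrp was higher with dTAG in both clones and Terc moved apart, and without Dox Terc was lower with dTAG in both clones and Rmrp moved apart.

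Rmrp changed by 0.37 ± 0.31 with Dox (limma adjusted p = 0.610) and Terc by -0.01 ± 0.30 (limma adjusted p = 0.994). Without Dox, Rmrp changed by -0.02 ± 0.31 (limma adjusted p = 0.977) and Terc by -0.56 ± 0.30 (limma adjusted p = 0.399). The SE of these changes was larger in ZFC3H1 than in ZCCHC8 for all 3 members. The short-gene share was 0.754%, 0.680%, 0.724% and 0.834% in 11A and 1.10%, 1.01%, 0.746% and 0.811% in 8H, in the same order of treatments, and it was highest in the 2 libraries with the most Rpph1.

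Terc was also lower without Dox after loss of YTHDC1, in both experiments. In experiment 1 it stood at 16.8 CPM untreated, 6.88 after dTAG, 10.8 after Dox and 8.15 after both in clone Y12H, and at 23.4, 14.6, 15.1 and 9.75 CPM in Y9F. In experiment 2 it stood at 4.11, 1.16, 2.63 and 1.97 CPM in Y12H and at 2.80, 2.19, 3.23 and 1.90 CPM in Y9F. The dTAG library was the lower of its pair in all 8 pairs, and the untreated and dTAG groups did not overlap in either experiment.

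The change in Terc without Dox was -0.91 ± 0.18 in experiment 1 (limma adjusted p = 0.00228) and -0.75 ± 0.18 in experiment 2 (limma adjusted p = 0.0057). With Dox it was -0.48 ± 0.18 (limma adjusted p = 0.0893) and -0.42 ± 0.18 (limma adjusted p = 0.121), neither of them called. Without Dox 19% of genes were called in experiment 1 and 17.8% in experiment 2, and with Dox 15.5% and 14.7%. Of 8 alternative fits, the call without Dox was lost in 1 in experiment 1 and in 2 in experiment 2. In experiment 2 Terc had 30 to 117 reads a library and a level near the 1 CPM added before the log. That addition shrinks its change, and the alternative fits there gave -1.10 to -0.73. Both experiments used the same clones, so the second is a repeat of the cultures and not of the clones. Without Y12H the call in experiment 1 was lost (-0.65, limma adjusted p = 0.111), and in experiment 2 each clone alone gave -1.24 (Y12H) and -0.25 (Y9F), values with no test.

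Rpph1 rose with dTAG in the presence of Dox in experiment 2. It stood at 972 CPM untreated, 581 after dTAG, 332 after Dox and 700.2 after both in Y12H, and at 628, 642, 269 and 387 CPM in Y9F. Both dTAG + Dox libraries were above both Dox libraries, and the change was 0.80 ± 0.13 (limma adjusted p = 3.2e-04). Without Dox it was -0.35 ± 0.13 (limma adjusted p = 0.0682).

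The response of Rpph1 with Dox exceeded that without by 1.15 ± 0.19 in experiment 2 (limma adjusted p = 0.0213), where 0.0219% of genes, or 3 of 13722, were called. That difference was 1.82 in Y12H and 0.49 in Y9F, and it was chosen after seeing the data. Its call was lost in 5 of 7 alternative fits, edgeR among them (1.13, adjusted p = 0.0546), with values of 1.13 to 1.16 throughout. In experiment 1, Rpph1 stood at 418, 459, 564 and 596 CPM in Y12H and at 1374, 897, 781 and 758 CPM in Y9F, in the order untreated, dTAG, Dox and dTAG + Dox. The groups overlapped there, and the changes of -0.24 without Dox (limma adjusted p = 0.562) and 0.02 with Dox (limma adjusted p = 0.969) were not called. The experiments are in separate tables and their difference was not tested.

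Rmrp showed no call in YTHDC1. It stood at 7947, 5232, 2978 and 2787 CPM in Y12H and 4754, 5097, 5027 and 3309 CPM in Y9F in experiment 1, in the same order. In experiment 2 it stood at 1444, 773, 732 and 872 CPM in Y12H and 2110.0, 2782, 1447 and 1819 CPM in Y9F. With Dox, dTAG went with less Rmrp in both clones in experiment 1 (-0.35 ± 0.23, limma adjusted p = 0.333) and with more in both in experiment 2 (0.29 ± 0.16, limma adjusted p = 0.239).

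**Figure D2:**
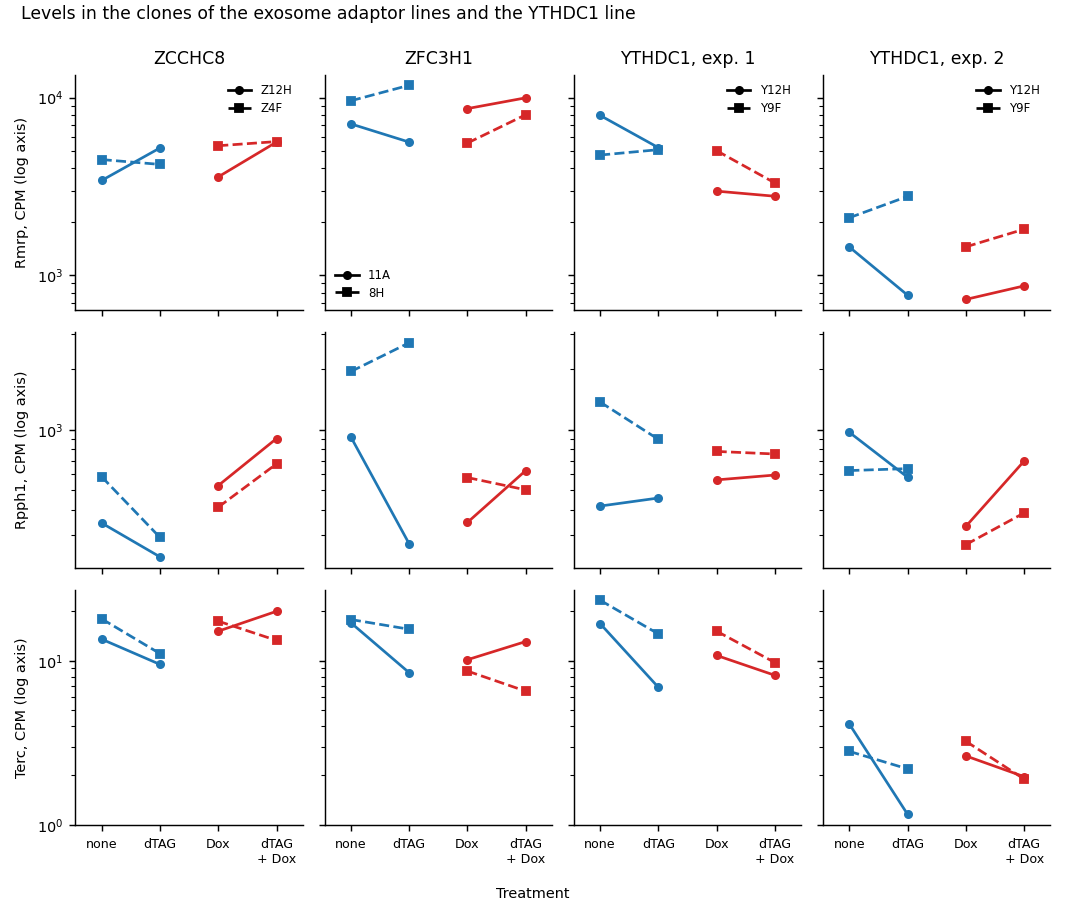
Level of each member (CPM, log axis) in untreated, dTAG, Dox and dTAG + Dox libraries of the ZCCHC8, ZFC3H1 and YTHDC1 lines, with a line joining the libraries of a clone without Dox (blue) and with Dox (red). Rpph1 was lower with dTAG and higher with dTAG + Dox in both ZCCHC8 clones, whereas the ZFC3H1 clones diverged, from 271 CPM in 11A to 2706 CPM in 8H with dTAG.

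All 3 members spread widely among the METTL3 clones and had no call in this line. Rmrp stood at 2555 CPM untreated, 2294 after dTAG, 218 after Dox and 25414 after both in C3, and at 16079.6, 15241, 18928 and 12561 CPM in G4. It stood at 4476, 9966, 15742 and 8048 CPM in H1 and at 9943, 20668, 5489.6 and 3067 CPM in H5. The lowest and the highest level of Rmrp in all 80 libraries were thus the Dox and the dTAG + Dox library of the same clone, C3.

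Rpph1 stood at 41.9, 86.1, 21.5 and 3544 CPM in C3, 281, 1011, 1303 and 807 CPM in G4, 55.4, 1133, 863 and 1357 CPM in H1 and 247, 538, 58.4 and 57.7 CPM in H5. Terc stood at 11.7, 15.3, 1.31 and 246 CPM in C3, 87.7, 45.0, 44.3 and 32.2 CPM in G4, 17.0, 24.4, 41.4 and 13.3 CPM in H1 and 39.9, 101, 16.9 and 29.4 CPM in H5. The C3 dTAG + Dox library was the highest of all 80 for each of the 3 members, and its short-gene share, at 1.65% without the members, was also the highest. The C3 Dox library was the lowest of the METTL3 libraries for each of them, with a share of 0.473%.

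With Dox the change was 1.11 ± 1.01 for Rmrp, 1.81 ± 1.24 for Rpph1 and 1.37 ± 0.98 for Terc, with limma adjusted p of 0.440, 0.314 and 0.334. Without C3 the same changes were -0.80, -0.02 and -0.42. Without Dox they were 0.49, 2.08 ± 1.24 and 0.31, with limma adjusted p of 0.729, 0.220 and 0.831, and Rpph1 was higher with dTAG in 4 of 4 clones. In METTL3 10.5% of genes were called with Dox and 23.3% without. The median gene changed by 0.23 with Dox and 0.21 without on this scale, and with median-ratio scaling, which removes that shift, Rpph1 changed by 1.54 and 1.82.

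In the transgene lines Rpph1 fell with dTAG in the presence of Dox in D395A_XX. It stood at 426 CPM untreated, 645 after dTAG, 719 after Dox and 497 after both in experiment 1, and at 539, 566, 736 and 301 CPM in experiment 2. In both experiments the dTAG + Dox library was well below the Dox library, without overlap. The change was -0.91 ± 0.23 (limma adjusted p = 0.00668), in a comparison that called 29.3% of genes. Without experiment 2 it was -0.53 and not called (limma adjusted p = 0.239). Without Dox Rpph1 changed by 0.33 (limma adjusted p = 0.263), where 37.5% of genes were called.

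WT_XX, which keeps a METTL3 that dTAG does not reach, was the control for this response. Its Rpph1 stood at 344, 688, 452 and 519.6 CPM in experiment 1 and at 77.1, 61.9, 52.4 and 61.8 CPM in experiment 2, in the same order. The experiments did not overlap, and Rpph1 was higher with dTAG + Dox than with Dox in both. The change was 0.22 with Dox, and the response of D395A_XX minus that of WT_XX was -1.13 ± 0.32 (limma adjusted p = 0.0320), where 12.1% of genes were called. This too was lost without experiment 2 of D395A_XX (-0.75, limma adjusted p = 0.244). Without Dox the same difference was -0.01, where 16.3% were called.

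WT_XX called 0% of genes with Dox and 0% without by limma. The genes with an unadjusted p under 0.05 numbered 950 and 312, and edgeR also called 0 in both. Rmrp in this line stood at 2252, 2951, 2079 and 2712 CPM in experiment 1 and 2935, 1085, 2221 and 2138 CPM in experiment 2. Terc stood at 13.5, 17.5, 13.6 and 16.2 CPM and at 5.16, 5.00, 5.13 and 6.22 CPM. Rmrp overlapped between the experiments, while Rpph1 and Terc were lower in every library of experiment 2, whose short-gene shares of 0.407% to 0.470% were the lowest of the XX table.

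In D395A_XX, Rmrp stood at 2288, 2561, 3880.1 and 2875 CPM in experiment 1 and 1443, 1327, 1694 and 1196 CPM in experiment 2. Terc stood at 7.94, 11.5, 11.1 and 9.04 CPM and at 8.13, 9.64, 14.4 and 10.9 CPM. Both members were lower with dTAG + Dox than with Dox in each experiment, with changes of -0.47 ± 0.27 for Rmrp (limma adjusted p = 0.206) and -0.32 ± 0.15 for Terc (limma adjusted p = 0.111). edgeR, run on reads recovered from the CPM, called the change in Terc (-0.41, adjusted p = 0.0398).

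In the XiO lines, none of the members was called. For Rpph1, WT_XiO stood at 404, 615, 798 and 766 CPM in experiment 1 and 301, 124, 171 and 80.9 CPM in experiment 2, and D395A_XiO at 559, 223, 110.2 and 87.4 CPM and at 141, 321, 150.2 and 179 CPM. For Rmrp, WT_XiO stood at 1546, 1631, 2726 and 2135 CPM and 1703, 987, 1099 and 833 CPM, and D395A_XiO at 1429, 1717, 1169.7 and 1034 CPM and 1099, 1533, 1130.2 and 1263 CPM. For Terc, WT_XiO stood at 11.9, 11.0, 14.6 and 9.18 CPM and 20.2, 13.5, 10.1 and 7.09 CPM, and D395A_XiO at 8.32, 4.91, 3.70 and 3.45 CPM and 8.41, 20.2, 11.0 and 10.2 CPM. Untreated and dTAG groups, and Dox and dTAG + Dox groups, overlapped except for Rmrp in D395A_XiO, higher with dTAG without Dox, and Terc in WT_XiO, lower with dTAG + Dox than with Dox.

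The changes with Dox were -0.38, -0.56 and -0.54 in WT_XiO and -0.01, -0.04 and -0.09 in D395A_XiO for Rmrp, Rpph1 and Terc. Without Dox they were -0.35, -0.34 and -0.33 in WT_XiO and 0.37, -0.067 and 0.26 in D395A_XiO. The difference of the responses, D395A_XiO minus WT_XiO, was 0.37, 0.52 and 0.45 with Dox and 0.73, 0.27 and 0.59 without. D395A_XiO called 31.1% of genes with Dox and 34.4% without, and the differences called 9.3% and 14.1%. The median gene changed by 0.11 and 0.12 in D395A_XiO, and with median-ratio scaling the members' changes with Dox were -0.16, -0.20 and -0.22. WT_XiO called 0% with Dox and 0% without by limma, with 367 and 506 genes at an unadjusted p under 0.05, and edgeR called 0 in both.

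**Figure D3:**
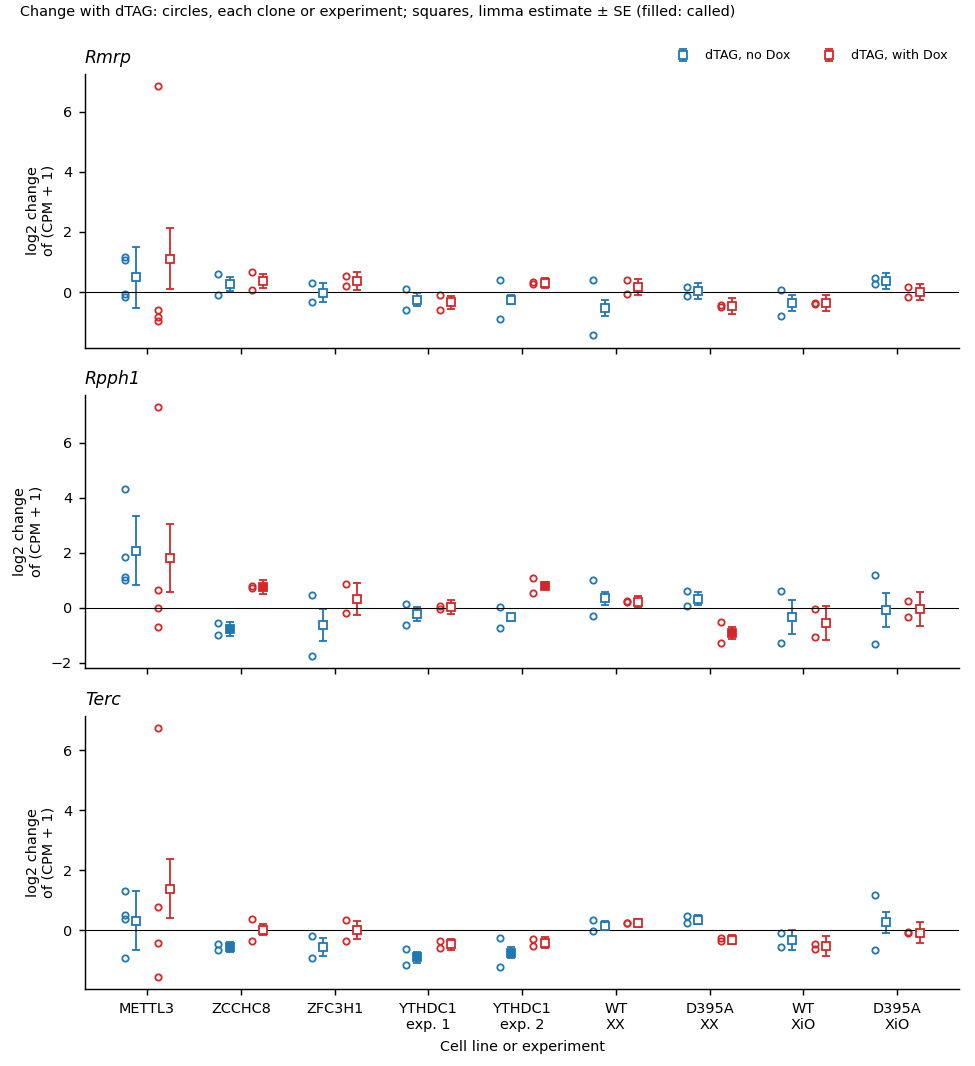
Change in each member with dTAG on the log2(CPM + 1) scale, without Dox (blue) and with Dox (red), with circles for each clone or experiment and squares for the limma estimate with its SE, filled where the adjusted p is below 0.05. Of 54 estimates 7 are filled, a share of 13% next to 17.5% over all genes in these comparisons, among them Terc without Dox in ZCCHC8 and in both YTHDC1 experiments, all below 0.

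Over the 9 lines or experiments, 7 of the 54 changes of a member with dTAG were called, or 13%, and 12 had an unadjusted p under 0.05. Over the same 18 comparisons 17.5% of all gene tests were called, so the members were not called more often than genes in general. The 7 were Terc without Dox in ZCCHC8 and both YTHDC1 experiments, Rpph1 without and with Dox in ZCCHC8, Rpph1 with Dox in YTHDC1 experiment 2 and Rpph1 with Dox in D395A_XX. Rmrp had no call in any line. Within sets, Terc was lower with dTAG in 13 of 20 sets without Dox and in 14 of 20 with Dox, Rpph1 in 8 and 9, and Rmrp in 9 and 11. Dox by itself went with more Rmrp in 10 of 20 sets, Rpph1 in 9 and Terc in 8.

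How far the members followed one another, and the share of reads in short genes, differed between tables. Centred on each set, log2 levels over the 80 libraries correlated with r = 0.75 for Rmrp and Rpph1, 0.84 for Rmrp and Terc and 0.74 for Rpph1 and Terc, with rho of 0.64, 0.55 and 0.59. In METTL3, where clone C3 spread the most, the same r were 0.83, 0.94 and 0.76. In the other tables they ranged from 0.00090 to 0.87 for Rmrp and Rpph1, from 0.37 to 0.70 for Rmrp and Terc and from 0.11 to 0.96 for Rpph1 and Terc. Rmrp and Rpph1 were least alike in the table of ZCCHC8 and YTHDC1 experiment 1, and Rpph1 and Terc in YTHDC1 experiment 2. The points share libraries and their scaling, so these are descriptions. The members took 4.86% to 68.7% of all reads in genes under 3 kb (median 32.5%). Rmrp alone took 36.4% on average, next to 5.31% for Snhg3, a snoRNA host gene, and 4.31% for Rpph1, and for that reason the share below leaves out all 3 members.

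The relation of log2 level to that share was computed for 3 members in 6 tables, 18 relations in all, with permutation p-values that treat libraries as independent although those of a set share a clone and an experiment. In METTL3 Pearson's r was 0.61 for Rmrp, 0.65 for Rpph1 and 0.81 for Terc over 16 libraries, with permutation p of 0.0288, 0.0025 and 3.2e-04 and adjusted p of 0.0648, 0.0103 and 0.00192. Spearman's rho was 0.71, 0.73 and 0.69, with permutation p of 0.00273, 0.00206 and 0.00361. Without the 2 libraries farthest from the median share, C3 dTAG + Dox and H5 dTAG, r was 0.63, 0.63 and 0.68, with adjusted p of 0.0519, 0.0529 and 0.0304 (permutation test), and rho was 0.56, 0.74 and 0.54, with adjusted p of 0.170, 0.0330 and 0.174. By r the relation of Terc passed and that of Rpph1 did not, and by rho it was the other way round. Centred on each set, r over the 16 libraries was 0.86, 0.86 and 0.90, with adjusted p of 7.8e-04, 4.5e-04 and 4.5e-04 (permutation test), so that of Rmrp passed as well. Centred levels were permuted over all libraries and not within sets, so here and below the p-values of centred relations may be too small.

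In the table of ZCCHC8 and YTHDC1 experiment 1, r was 0.36 for Rmrp, 0.59 for Rpph1 and 0.18 for Terc over 16 libraries (permutation p = 0.172, 0.0165 and 0.4998), and rho was 0.37, 0.63 and 0.00 (permutation p = 0.155, 0.0103 and 0.995). The adjusted p for Rpph1 was 0.0425, and without the 2 farthest libraries r was 0.54 with an adjusted p of 0.117. Centred on each set, r for Rpph1 was 0.33 with an adjusted p of 0.324 (permutation test), so its call was lost. Within the 8 ZCCHC8 libraries r was 0.71, 0.37 and -0.11, and within the 8 YTHDC1 libraries 0.24, 0.77 and 0.57, with exact permutation p of 0.0594, 0.359 and 0.789 and of 0.558, 0.0259 and 0.138. None of the 6 passed after adjustment, and without the 2 farthest of the ZCCHC8 libraries r for Rpph1 and Terc was -0.77 and -0.84.

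In ZFC3H1 r was 0.73 for Rmrp, 0.89 for Rpph1 and 0.62 for Terc over 8 libraries (exact permutation p = 0.0398, 0.00625 and 0.108), and rho was 0.74, 0.86 and 0.62 (exact permutation p = 0.0458, 0.0107 and 0.115). The adjusted p for Rpph1 was 0.0188. Without the untreated and dTAG libraries of 8H, r was 0.70, 0.59 and 0.11 with exact permutation p of 0.122, 0.211 and 0.856, and rho was 0.54, 0.71 and 0.26, so with 6 libraries the relation for Rpph1 no longer passed. Centred on each set, r over all 8 was 0.80, 0.84 and 0.84, with adjusted p of 0.0433, 0.0323 and 0.0323 (exact permutation test), and all 3 passed. In YTHDC1 experiment 2 r was 0.57, -0.39 and -0.08 and rho 0.67, -0.26 and -0.07 over 8 libraries (exact permutation p for r = 0.146, 0.345 and 0.849), and none passed.

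Over all 16 libraries of the XX lines r was 0.08 for Rmrp, 0.91 for Rpph1 and 0.94 for Terc. The adjusted p was 0.846, 0.00192 and 1.8e-04 (permutation test). Centred on each set, r was 0.30, 0.23 and 0.81, and only Terc passed (permutation test, adjusted p = 9.45e-04). The 4 libraries of WT_XX in experiment 2 formed a cluster apart, with shares of 0.407% to 0.470%. Over the other 12 libraries r was -0.12 for Rmrp, 0.03 for Rpph1 and 0.85 for Terc (permutation p = 0.704, 0.925 and 2.7e-04, the last with an adjusted p of 8.1e-04), and rho was -0.06, 0.12 and 0.89. Without the 2 farthest of those, r was 0.11, -0.25 and 0.84, so the relation for Terc did not rest on them. Over all 16 libraries of the XiO lines r was -0.10, -0.07 and 0.70, and only Terc passed (permutation test, adjusted p = 0.0103). Centred on each set, r was 0.51, 0.51 and 0.65, and again only Terc passed (permutation test, adjusted p = 0.0200). The experiments stood apart in these lines. Within experiment 1 r was 0.83, 0.85 and 0.83 over 8 libraries (exact permutation p = 0.0114, 0.00868 and 0.0146) and rho was 0.62, 0.93 and 0.76. Within experiment 2 r was 0.57, 0.62 and 0.61 (exact permutation p = 0.133, 0.0994 and 0.0969) and rho was 0.60, 0.55 and 0.69. Without the 2 farthest libraries of each experiment r was 0.41, 0.84 and 0.82 and then 0.40, 0.36 and 0.76, of which none passed after adjustment.

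**Figure D4:**
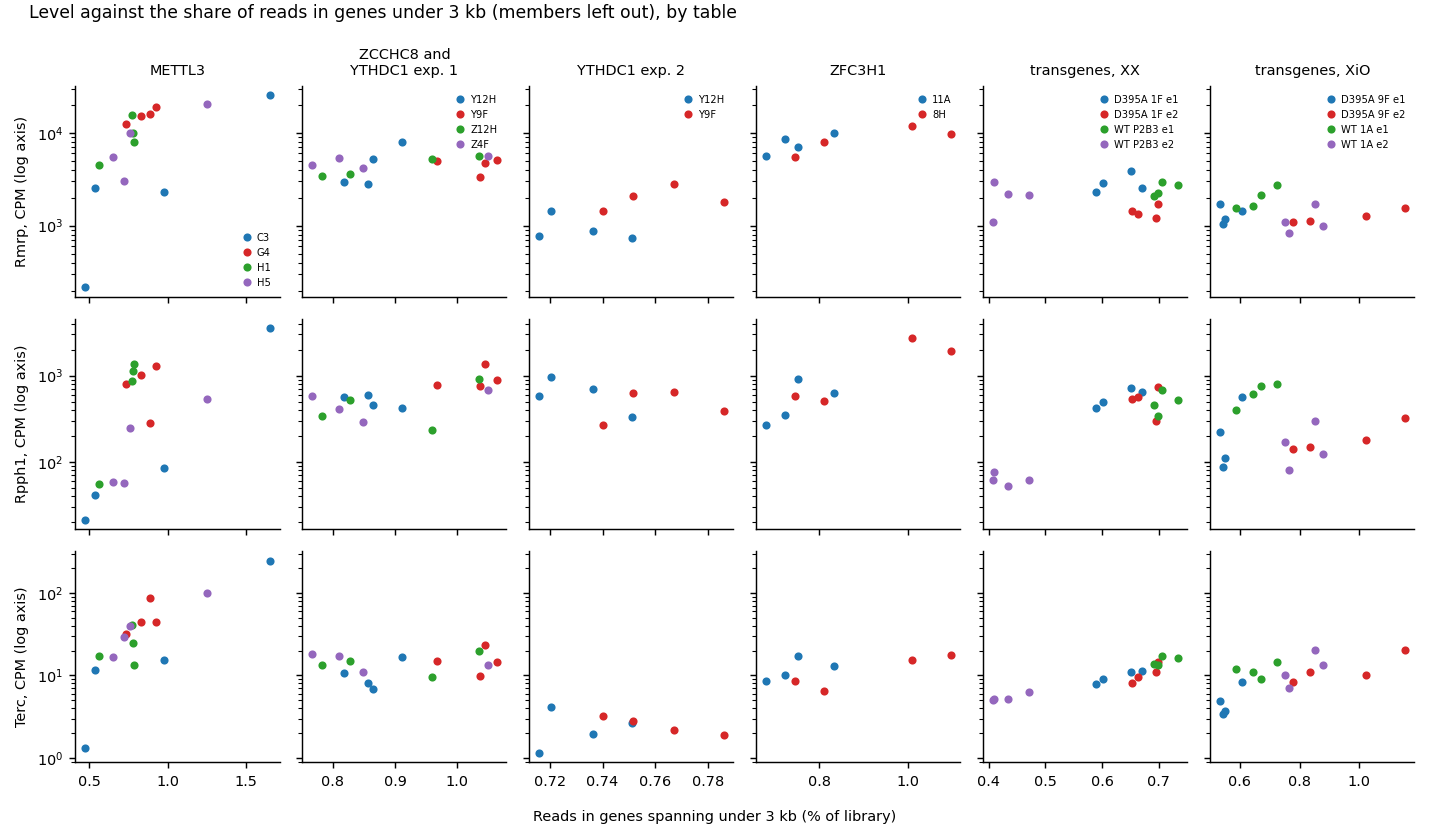
Level of each member (CPM, log axis) against the percentage of reads in genes under 3 kb, members left out, in the 6 tables, with each point a library coloured by clone or by clone and experiment. In METTL3 all 3 members rise with the share (r = 0.61, 0.65 and 0.81 for log2 levels), and in ZFC3H1 the 2 libraries with the highest share and the most Rpph1 are from clone 8H.

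Likeness to other genes was measured by Spearman's rank correlation over the 80 libraries of log2 levels centred on each set, for the 12671 genes that passed the filter in all tables, as a description with libraries and their scaling shared. For Rmrp the 5 highest values were with the histone genes Hist1h3f (0.73), Hist1h3e (0.72), Hist1h3g (0.71), Hist1h4k (0.69) and Hist1h1c (0.69). For Rpph1 they were with the histone genes Hist1h4d (0.93), Hist1h4f (0.91), Hist1h4a (0.88) and Hist1h3e (0.87) and with Rplp1 (0.86), a ribosomal protein gene. The median over all 12671 genes was 0.05 for Rmrp and 0.11 for Rpph1.

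For Terc the most similar were the snoRNA host genes Snhg9 (0.74) and Snhg3 (0.69), then Phb2 (0.67), Cpsf4 (0.64) and Rps3 (0.63), against a median of 0.07. Among each other the members ranked lower. Rpph1 was rank 19 and Terc rank 44 for Rmrp, Rmrp rank 142 and Terc rank 251 for Rpph1, and Rpph1 rank 20 and Rmrp rank 48 for Terc.

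The genes nearest to the RNA genes were read beside them. Ccdc107, whose start lies 305 bases from that of Rmrp on the opposite strand, stood at 0.84 to 3.85 CPM, and Parp2, a DNA repair enzyme gene whose start lies 174 bases from that of Rpph1, at 39.0 to 89.9 CPM. Neither was called with dTAG in ZCCHC8 or ZFC3H1, and in ZCCHC8 with Dox they changed by -0.20 and -0.15. Ccnb1ip1, on the other side of Rpph1 at 11718 bases, rose by 0.38 in ZCCHC8 with Dox (limma adjusted p = 0.0059), and BC107364, 18954 bases from Terc, by 0.54 (limma adjusted p = 0.0347). That comparison called 40.4% of all genes. Ccnb1ip1 was also called higher in METTL3 (0.46 without Dox and 0.59 with) and in D395A_XX (0.73 and 0.75). Parp2 was called lower in YTHDC1 experiment 2 without Dox (-0.21) and in D395A_XiO with Dox (-0.26). Levels of Ccnb1ip1 and BC107364 were 16.7 to 97.7 and 0.33 to 8.45 CPM.

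Transcripts coding for proteins of the same particles were called in both directions with loss of ZCCHC8. In that line 40.4% of all genes were called with Dox (25.2% higher and 15.2% lower) and 36.1% without (19.9% and 16.2%). All changes given below are in RNA and not in protein. Of the 11 protein subunits of RNase MRP and RNase P, 4 rose and 2 fell with Dox in ZCCHC8, with a median change of 0.15 against 0.04 over all genes. The 4 were Rpp38 (0.99), Pop7 (0.77), Rpp25l (0.55) and Pop5 (0.44), and Pop4 (-0.31) and Pop1 (-0.16) fell. Without Dox Rpp38 rose by 1.02 and Rpp40 fell by 0.29, with a median of 0.02 against -0.01. In ZFC3H1 none of the 11 was called in either comparison, with medians of -0.05 with Dox and -0.21 without.

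For proteins of telomerase and of H/ACA particles, or of the maturation of telomerase RNA, 15 gene symbols were listed. Of those symbols, 14 were found and tested. In ZCCHC8 with Dox the RNA of 1 rose and that of 5 fell, a share of the list near the 40.4% over all genes. Nop10, an H/ACA core protein, rose by 0.52, while Pabpn1, a nuclear poly(A) binding protein, changed by -0.50, Gar1, another core protein, by -0.48, Papd5, a poly(A) polymerase, by -0.20, Naf1, an assembly factor, by -0.20 and Shq1, a dyskerin chaperone, by -0.18. Without Dox Pabpn1 (-0.35) and Papd5 (-0.17) fell and none rose. The medians were -0.12 with Dox and -0.07 without, and none of the 14 was called in ZFC3H1.

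Of 20 genes of RNA polymerase III and the factors of upstream promoters such as those of Rmrp and Rpph1, 3 rose and 4 fell with Dox in ZCCHC8, a share below the 40.4% over all genes, with a median of -0.06. Snapc3 (0.59), Polr3k (0.53) and Snapc5 (0.50) rose, and Polr3c (-0.40), Polr3e (-0.21), Bdp1 (-0.17) and Polr3b (-0.16) fell. Without Dox Snapc3 rose by 0.65 and Polr3e fell by 0.33, and none was called in ZFC3H1. Of 35 other short structured RNAs looked for, 6 were in the tables and none reached the filter, so whether they moved with the members could not be measured.

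**Figure D5:**
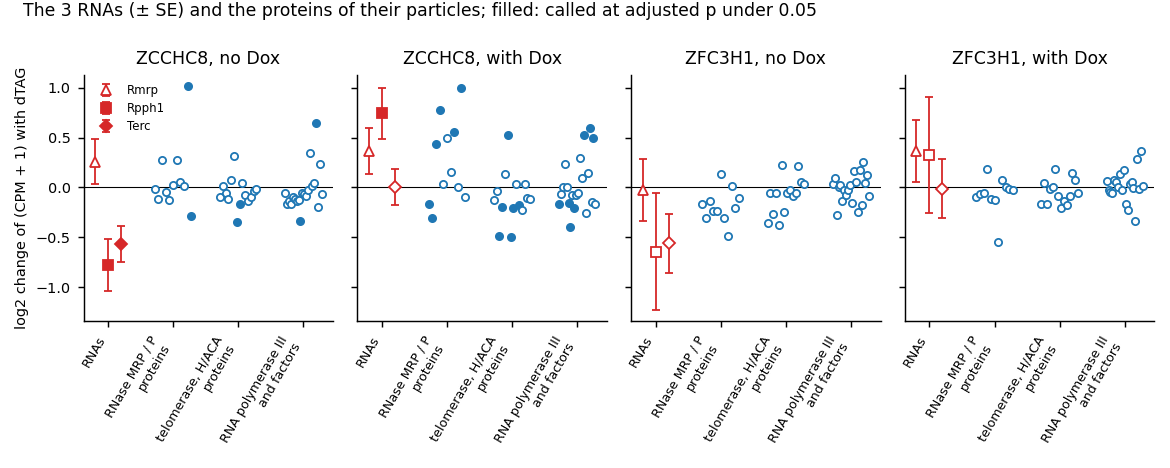
Change with dTAG on the log2(CPM + 1) scale in ZCCHC8 and ZFC3H1, without and with Dox. The 3 RNAs are in red (limma estimate with its SE). Blue circles are transcripts, a gene each, for the proteins of their particles and for RNA polymerase III and its factors. Points are filled where the adjusted p is below 0.05. In ZCCHC8 the called transcripts lie on both sides of 0, from -0.50 for Pabpn1 to 0.99 for Rpp38 with Dox, and no point is filled in ZFC3H1.

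Xist was measured beside the members as the gene the lines were built around, and rose with dTAG in ZCCHC8 by 2.91 without Dox and 1.43 with Dox. In ZFC3H1 it rose by 1.29 without Dox (limma adjusted p = 0.00736), while with Dox it stood at 2334 ± 939 CPM after Dox and 1724 ± 482 CPM after both (SD, n = 2), a change of -0.40 that was not called (limma adjusted p = 0.302). The transcripts of Zcchc8 and Zfc3h1 were not called in their own lines, at -0.09 and 0.30 with Dox, and since dTAG removes the protein they do not test its loss.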

How the data were processed

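The deposited values are CPM, which the authors made from chromatin-associated RNA reads: ribosomal RNA reads were removed with bowtie2, the rest aligned by STAR to an N-masked mm10 genome, unique alignments counted by strand over whole transcript spans with featureCounts, and counts scaled to counts-per-million with edgeR. Libraries were stranded total RNA with ribosomal RNA depleted by either of 2 kits, and which library had which kit is not given in the sources used here. Because spans of transcripts were counted, short single-exon genes have no intron reads. Allelic ratio tables were not used. Of all columns, 24 matched no sample label and were left out.

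Whole reads were recovered from the CPM steps (100% of values within 0.05 reads), giving 8583487 to 34392078 gene reads per library (median 22469210). No pair of replicates was identical. Depth bounds counting error only, since reads carry no molecular identifiers.

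Groups came from the sample labels. limma 3.58.1 (lmFit, eBayes with trend, R 4.3.3) was fitted to log2(CPM + 1) for genes whose mean reached 1 CPM, over all libraries of a table, with the set as a block and Benjamini-Hochberg adjustment over all genes, and a call is an adjusted p below 0.05. The block is the design's own, since the labels name the clone and the wells of a set were split from the same cells, and deviations of libraries with the same number correlated with medians of 0.36 to 0.88. With the set as a block, p-values rest on how treatment effects varied between the sets of a line, pooled over lines of a table. eBayes then moderated that spread over genes. Tests were checked on counts simulated with the same dispersion for all genes and no differences between sets. Over the ZCCHC8, YTHDC1 experiment 1 and ZFC3H1 comparisons, 49% to 67% of 2-fold changes and 99% to 100% of 4-fold changes were recovered. The members varied more within sets than most genes, so these shares need not carry over to them. Correlations used permutation of libraries (100000 resamples, exact for 8 or fewer). Alternatives were edgeR 4.0.16 on recovered reads, a pseudocount of 0.1 CPM, no filter, other scalings, a covariate, no block, only the compared groups and leaving out each clone or experiment. The difference between responses with and without Dox, and correlations in subsets of libraries, were chosen after seeing the data.

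Beside the members, genes were named by fixed lists (particle proteins, RNA polymerase III, neighbours on each side), by the 5 highest rank correlations, and by a call in the ZCCHC8 or ZFC3H1 comparisons. Members and lists were chosen with earlier results of these data known. Sequences are RefSeq's on GRCm38. Of the 3 members none has an entry in the promoter table, so motifs were read in the neighbours' windows. Copies in the genome were searched with blastn 2.17.0.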

Additional observations from a re-analysis of the deposited data

Results flagged for a closer look

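Terc in the dTAG + Dox library of METTL3 clone C3 stood at 246 CPM, far from the other 3 clones at 13.3 to 32.2 CPM. It was the only one of 12 groups of 4 libraries in which a value stood apart by Dixon's criterion, which chance meets in about 1 in 20 groups.

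The response of Rpph1 to dTAG differed with and without Dox in YTHDC1 experiment 2, by 1.15 (limma adjusted p = 0.0213), and higher in both clones. That call was lost in 5 of 7 alternative fits. The response of Rpph1 with Dox differed between D395A_XX and WT_XX, by -1.13 (limma adjusted p = 0.0320), with both experiments of D395A_XX below both of WT_XX.

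Lines with the same tagged protein or transgene in separate tables were set side by side, that is the 2 experiments of YTHDC1 and the XX and XiO lines of each transgene. All 3 members were looked at in each of these pairs, with and without Dox. In 3 of those comparisons both replicates of a line moved one way and both of its partner the opposite way. With 2 replicates a line this is a description, and the share of all genes that show it is not given. The count was also not set against what random signs would give over these comparisons. The difference was not tested because the tables were scaled separately. Lines with different tagged proteins were not compared in this way. Rmrp with Dox changed by -0.35 in YTHDC1 experiment 1 and 0.29 in experiment 2. Rpph1 with Dox changed by 0.22 in WT_XX and -0.56 in WT_XiO. Terc with Dox changed by 0.23 in WT_XX and -0.54 in WT_XiO.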

How the results depend on the processing

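The members had 7 calls among 54 changes with dTAG in the design as reported, or 13%, where 17.5% of all gene tests were called. That count was 8 with edgeR (17.3% of all gene tests) and with median-ratio scaling (17.9%), 7 with a pseudocount of 0.1 CPM (17.4%) and with short-gene scaling (13.8%), 4 with the short-gene share in the model (13%), 2 with no filter (10.9%), 25 when only the 2 compared groups were fitted (20.2%) and 0 by limma without the replicate block (3.91%), where 3 had an unadjusted p under 0.05. Of 18 differences between lines 1 was called, against 2 with edgeR and 0 with no filter, with the covariate or without the replicate block. Without the replicate block ZCCHC8 had 3285 calls with Dox and 2498 without, and ZFC3H1 0 and 0 by limma (388 and 349 at an unadjusted p under 0.05). Leaving out a clone gave 3136 to 4162 calls with Dox and 2765 to 2921 without in ZCCHC8. The cause was not tested in these cases or those below.

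In ZCCHC8 the calls for Rpph1 (0.74 and -0.78) and for Terc without Dox (-0.56) were lost with no filter and without the replicate block, with unchanged values. With the covariate Rpph1 was 1.97 and -0.073, Terc without Dox -0.36, and Rmrp -0.67 with Dox and -0.34 without, both of the opposite sign. With short-gene scaling Rpph1 with Dox was 0.39, and Terc with Dox was -0.32, -0.10 with median-ratio scaling and -0.050 with edgeR, all opposite in sign. Fitted on 2 groups, Rmrp was called at 0.36 and 0.26. In ZFC3H1, Rmrp without Dox turned to 0.11 with short-gene scaling, 0.26 with the covariate and 0.041 with edgeR, Rpph1 with Dox to -0.19 with the covariate and Terc with Dox to 0.051 with edgeR. Fitted on 2 groups, Rmrp with Dox (0.37) and Terc without (-0.56) were called.

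Elsewhere signs turned where no call stood. With the covariate METTL3 gave -0.18 and -0.82 for Rmrp and -1.05 for Terc without Dox (-0.16 with short-gene scaling), ZCCHC8 minus YTHDC1 -0.068 and -0.15 for Rmrp and 0.24 for Rpph1 without Dox, and D395A_XiO -0.30 for Terc without Dox. D395A minus WT gave 0.11 for Rpph1 and -0.0062 for Terc in XX without Dox, and -0.077 and -0.31 for Rpph1 in XiO. Rpph1 in YTHDC1 experiment 1 with Dox was -0.0083 with median-ratio and -0.065 with short-gene scaling. Rmrp in D395A_XX without Dox was -0.14, -0.083, -0.077 and -0.12 with median-ratio scaling, short-gene scaling, the covariate and edgeR. The difference with minus without Dox turned to -0.024 (short-gene scaling) and -0.33 (covariate) for Rmrp in ZCCHC8 and to -0.20 and -0.027 for Rmrp and Rpph1 in ZFC3H1 with the covariate.

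Leaving out each clone or experiment, with the lone sample assumed to vary like the other groups, moved Rpph1 in ZCCHC8 over 0.71 to 0.77 with Dox and -0.998 to -0.56 without, Terc over -0.37 to 0.38 and -0.66 to -0.47, and Rmrp without Dox over -0.091 to 0.61. METTL3 moved over -0.80 to 1.81 for Rmrp, -0.018 to 2.65 for Rpph1 and -0.42 to 2.35 for Terc with Dox, and -0.028 to 0.72 for Terc without. YTHDC1 experiment 1 moved over -0.60 to 0.10 for Rmrp and -0.62 to 0.13 for Rpph1 without Dox, and -0.042 to 0.080 for Rpph1 with Dox. WT_XX moved over -1.43 to 0.39 for Rmrp, -0.31 to 1.00 for Rpph1 and -0.040 to 0.34 for Terc without Dox, and -0.055 to 0.38 for Rmrp with Dox. D395A_XX moved over -0.12 to 0.16 for Rmrp without Dox, and its difference from WT_XX over -0.37 to 1.46 for Rmrp and -0.66 to 0.65 for Rpph1. WT_XiO moved over -0.79 to 0.077 for Rmrp and -1.28 to 0.61 for Rpph1 without Dox. D395A_XiO moved over -0.18 to 0.16 for Rmrp and -0.33 to 0.25 for Rpph1 with Dox, and -1.32 to 1.19 for Rpph1 and -0.66 to 1.17 for Terc without. Its difference from WT_XiO without Dox moved over -0.99 to 1.52 for Rpph1 and -0.33 to 1.50 for Terc. ZFC3H1 and YTHDC1 experiment 2 then have no residual degrees of freedom, so their values carry no test, and in ZFC3H1 Rpph1 without Dox was -1.76 in 11A and 0.47 in 8H.

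Of 18 correlations with the short-gene share 7 passed over whole tables, 11 with the members in the share, 8 centred on each set and 4 without the 2 farthest libraries. Signs turned for Terc within ZCCHC8 (-0.11, and -0.84 without its 2 farthest libraries), for Rpph1 within ZCCHC8 (-0.77) and Rmrp within YTHDC1 (-0.065) without their 2 farthest libraries. In YTHDC1 experiment 2 they turned for Rmrp centred on each set (-0.036), and for Rpph1 (0.28) and Terc (0.20) with the members in the share or Rpph1 with a 1 kb limit (0.91). In XX they turned for Rmrp without the 2 farthest libraries (-0.071) or WT_XX experiment 2 (-0.12), and for Rpph1 without both (-0.25). In XiO pooled r below 0 for Rmrp and Rpph1 became 0.28 and 0.29 with the members in the share, 0.34 and 0.38 with a 1 kb limit, 0.51 and 0.51 centred on each set, 0.83 and 0.85 within experiment 1, 0.57 and 0.62 within experiment 2, and 0.41, 0.84, 0.40 and 0.36 there without the 2 farthest libraries.

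Depth limited Terc most, at 28 reads in its lowest library, and clones and experiments numbered 2 in every line but METTL3.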
